A study of Mus musculus with 48 samples.

Results

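The genes described here are the 8 members of a creatine and calcium cycling list that were looked up by symbol among the 54532 genes of the deposited count table: Gatm, Gamt, Ckb, Slc6a8 and Alpl for creatine, and Atp2a2, Atp2a3 and Ryr2 for calcium. All 8 were found, each in 1 row, and all 8 passed the filter on low counts that left 19977 genes for testing. They were set by gene name, with earlier results of these data known.

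Adipocytes can spend ATP as heat without uncoupling protein 1. In the creatine cycle, GATM makes guanidinoacetate, GAMT methylates it to creatine, the transporter SLC6A8 imports creatine from the blood, creatine kinase B (CKB) charges it with phosphate from ATP and the alkaline phosphatase ALPL removes that phosphate again. In the calcium cycle, SERCA pumps (SERCA2 from Atp2a2, SERCA3 from Atp2a3) spend ATP to move calcium into the endoplasmic reticulum and the ryanodine receptor RYR2 lets it back out. Atp2a2 is used by most cell types and Atp2a3 mainly by blood cells and some epithelia, while skeletal muscle relies on the related genes Atp2a1, Ryr1 and Ckm, so that muscle or lymph node in a dissected fat pad can enter the same measurements.

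Poly-A RNA was sequenced from inguinal subcutaneous white fat (sWAT) of mice labelled as C57BL/6 (C57BL/6J in the study's text) and as 8 months old. Twice-a-night (TAN) mice had food only in 2 windows of the dark phase, and ad-lib controls ate freely; both groups were wild-type males on regular chow, kept on their feeding pattern for months by the study's account. Tissue was taken at 8AM, 12PM, 4PM, 8PM, 12AM and 4AM, with 4 libraries per diet and time point, 48 in all. The material is given as stromal vascular fraction in the series design and as whole sWAT in the methods, and all 7 adipocyte markers looked up (Adipoq, Plin1, Lep, Fabp4, Lipe, Pnpla2 and Cidec) were present in every library, with a sum of 4615 to 45757 counts scaled to library size (CPM). Ucp1, the uncoupling protein itself, had 0 counts in 22 libraries and at most 3.18 CPM.

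Total counts ran from 15636378 to 29913310 in ad-lib and from 15685080 to 25440243 in TAN libraries. A library was called Acta1-rich when Acta1, the skeletal muscle actin, exceeded 10 times the median of the 48 libraries (18.9 CPM), and 6 libraries did, 4 ad-lib and 2 TAN, at 223 to 2149 CPM (the next library, TAN replicate 3 at 8PM, had 188 CPM). Lymphocyte markers differed as widely, the sum of 10 genes running from 8.46 to 2488 CPM. TAN replicates 1 and 2 at 8PM stood apart with the lowest adipocyte sums of all, 7349 and 4615 CPM. The clock times were checked against the library names of the study's printed tables: all 48 libraries matched the same diet and animal number at a time 12 h away, and 0 matched their own name. By the labels used here, Dbp, a clock output gene that peaks late in the light phase in mouse tissues, was highest at 4PM in both diets (102 ± 19.9 CPM ad-lib and 154 ± 58.0 CPM TAN, SD, n = 4). Contrasts of the diets within a time point do not depend on which name is right.

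Gene positions are those of GRCm38. Gatm lies at chr2:122594467-122611303 on the minus strand, Gamt at chr10:80258151-80261012 (minus), Ckb at chr12:111669361-111672338 (minus), Slc6a8 at chrX:73673150-73682502 (plus), Alpl at chr4:137741733-137796384 (minus), Atp2a2 at chr5:122453513-122502225 (minus), Atp2a3 at chr11:72961169-72993044 (plus) and Ryr2 at chr13:11553102-12106945 (minus). All 8 are protein-coding genes of GENCODE M21. For 6 of them no other gene of that annotation overlaps; Atp2a2 shares 83 exonic bases (1.36%) with the opposite-strand locus Gm43361, and the 3 loci inside Ryr2 share 0 of its exonic bases. RefSeq promoters of GRCm38.p6 were held for 6 of the 8 members, all but Slc6a8 and Atp2a2. The promoters of Gamt and Ckb are shown because these genes moved together across the libraries, and that of Atp2a3 because it moved the other way. Each is the 250 bases before the start site, read 5′ to 3′ on the gene's own strand from chr10:80261013-80261262, chr12:111672339-111672588 and chr11:72960919-72961168. Capitals mark 3 motifs on either strand: the Sp1 box GGGCGG, the element known as CCAAT box and the TATA box in its form TATAAA.
Gamt: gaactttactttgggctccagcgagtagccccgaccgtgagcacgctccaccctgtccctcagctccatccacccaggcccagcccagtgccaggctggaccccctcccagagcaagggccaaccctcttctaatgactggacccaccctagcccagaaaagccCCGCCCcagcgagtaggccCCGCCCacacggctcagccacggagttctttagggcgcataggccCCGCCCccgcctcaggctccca
Ckb: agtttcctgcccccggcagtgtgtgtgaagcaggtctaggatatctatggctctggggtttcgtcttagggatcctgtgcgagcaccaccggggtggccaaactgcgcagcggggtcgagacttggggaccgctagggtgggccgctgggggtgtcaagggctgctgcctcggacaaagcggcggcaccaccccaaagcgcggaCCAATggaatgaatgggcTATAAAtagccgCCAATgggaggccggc
Atp2a3: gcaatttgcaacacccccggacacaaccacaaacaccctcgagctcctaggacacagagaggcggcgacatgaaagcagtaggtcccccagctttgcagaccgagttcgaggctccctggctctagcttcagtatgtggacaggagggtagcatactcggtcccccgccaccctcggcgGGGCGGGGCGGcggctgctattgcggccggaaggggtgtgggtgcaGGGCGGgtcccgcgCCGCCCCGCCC
The Gamt promoter held GGGCGG at 3 places, all on the opposite strand, and the Atp2a3 promoter at 5 places, of which 4 form 2 pairs that overlap by 1 base. The Ckb promoter held no GGGCGG, but CCAAT at 2 places and TATAAA at 1. Among 32851 RefSeq promoters of the same length, 32.7% held GGGCGG, 33.8% CCAAT and 12.4% TATAAA. None of the 3 windows held the E-box CACGTG (6.02% of promoters), the cAMP response element TGACGTCA (1.55%), the nuclear receptor motif AAGGTCA (4.08%) or the Ets motif CCGGAAGT (2.88%).

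Per kilobase of gene length, the medians over the 48 libraries were 21.8 CPM per kb for Atp2a2, 17.2 for Ckb, 15.98 for Atp2a3, 12.0 for Gamt, 7.20 for Gatm, 2.64 for Slc6a8, 0.613 for Alpl and 0.0146 for Ryr2. The members differed in steadiness. Ckb stayed between 30.8 and 77.7 CPM and Atp2a2 between 61.1 and 196 CPM, whereas Atp2a3 ran from 16.6 to 199 CPM and Gatm from 0.602 to 87.7 CPM. Both extremes of Gatm fell in 1 group, TAN at 8PM. Ryr2 was close to undetected, with a median of 9.5 counts, 0 counts in 15 libraries and at most 51. When the 12 groups of diet and time were ranked by mean CPM, all 11 pairs of neighbours overlapped in range for each of the 8 members. Neighbours in an order of means lie close together by construction, so this overlap does not bear on groups further apart.

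**Figure D1:**
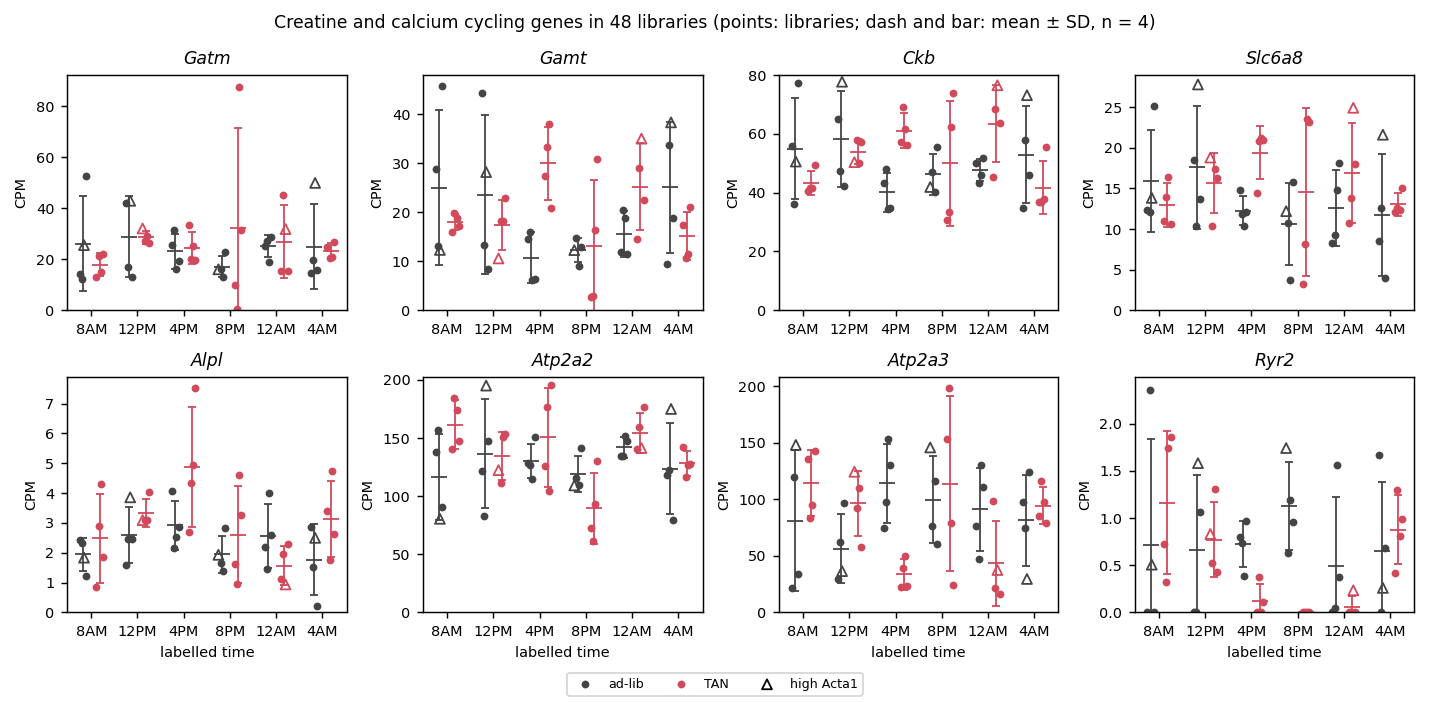
CPM of each member (vertical axis, from 0) in every library, by labelled time (horizontal axis), with ad-lib in grey and TAN in red; the dash and bar are mean ± SD (n = 4), cut at 0, and open triangles are the 6 Acta1-rich libraries. At 4PM the 4 TAN libraries of Atp2a3 (22.2 to 50.3 CPM) sit below the 4 ad-lib libraries (74.8 to 154 CPM), and at 8PM the 4 TAN libraries of Ryr2 lie at 0.

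TAN was compared with ad-lib at each time point to ask which members responded to the feeding pattern. Of the 48 combinations of 8 members and 6 time points, 0 were called higher and 2 lower by edgeR (Benjamini-Hochberg adjusted p under 0.05 over all genes), Atp2a3 at 4PM and Ryr2 at 8PM. Over all genes 4.54% of such combinations were called, so the members' 2 of 48 lay near the background. The 0 higher calls became 2 with DESeq2 and 1 with limma voom, and at an unadjusted p under 0.05 Gamt and Ckb at 4PM and Atp2a2 at 8AM were higher. In either direction 3 of 8 members had an unadjusted p under 0.05 at 4PM and 1 of 8 at 8AM, against 33.2% and 6.58% of all genes. By time point, the share of all genes called was 15.3% at 4PM (6.54% higher and 8.77% lower), 11.7% at 8PM (3.76% and 7.91%), 0.15% at 12AM (0.125% and 0.025%), 0.0901% at 12PM (0.0851% and 0.00501%), 0.015% at 8AM (0.01% and 0.00501%) and 0% at 4AM. The 4 TAN and 4 ad-lib libraries did not overlap for 4 members at 4PM, 1 at 8PM and 0 at 8AM, 12PM, 12AM and 4AM. Of all genes, 30.6% did not overlap at 4PM, 16.1% at 8PM, 3.07% at 8AM, 4.84% at 12PM, 9.13% at 12AM and 3.09% at 4AM. The number of separate animals behind the replicate labels is not stated, so p-values measure the spread between these samples.

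**Figure D2:**
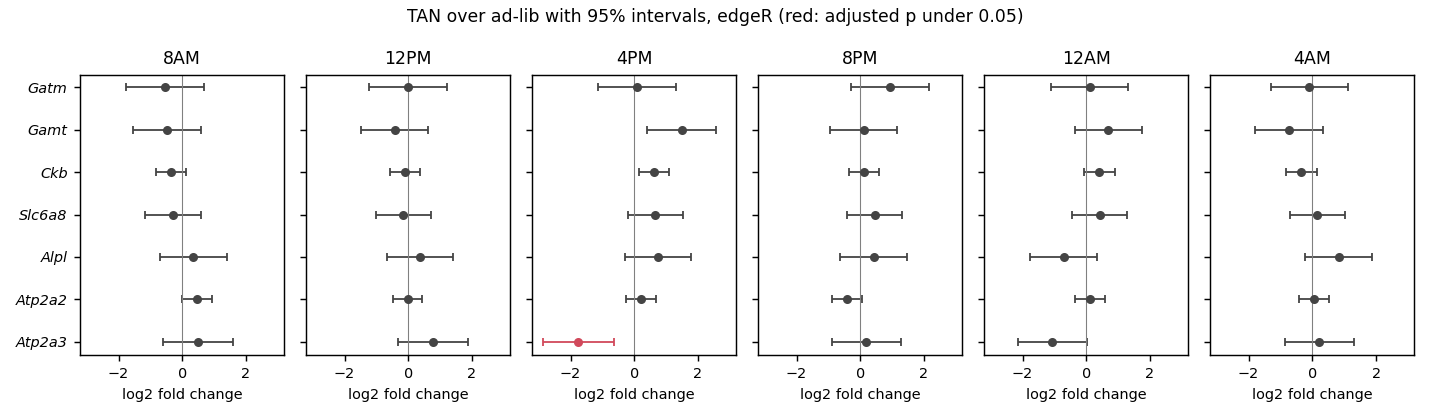
Log2 fold change of TAN over ad-lib (horizontal axis) with 95% intervals for 7 members at each time point, from the edgeR model of all 48 libraries (n = 4 per diet and time); red marks an adjusted p under 0.05. Atp2a3 at 4PM is the 1 red point, at -1.76, and Ryr2 is left out because its TAN libraries at 8PM have 0 counts.

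Among the genes that make creatine, Gamt separated the diets at 4PM without passing the adjusted test. Its 4 TAN libraries held 27.5, 33.4, 38.1 and 20.9 CPM, and the 4 ad-lib libraries 14.6, 15.9, 6.14 and 6.35 CPM. Every TAN library was above every ad-lib library. The log2 fold change was 1.48 (SE 0.53, 95% interval 0.41 to 2.56, edgeR adjusted p = 0.0513). The members that did not overlap between the diets at 4PM were Gamt, Ckb, Atp2a3 and Ryr2, against 30.6% of all genes. The adjusted p of Gamt ran from 0.0139 to 0.638 over the alternative fits and was under 0.05 in 7 of them, DESeq2 (0.0243) and limma voom (0.0278) among them, and in 1 of 8 fits that left out 1 library of 4PM (0.0499). At the other 5 time points the log2 fold changes of Gamt lay between -0.73 and 0.69 and the diets overlapped.

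Gatm, which makes the precursor that GAMT methylates, did not share that pattern. At 4PM its TAN mean was 24.5 ± 6.33 CPM and its ad-lib mean 23.1 ± 6.80 CPM (SD, n = 4), a log2 fold change of 0.09 (95% interval -1.12 to 1.302). At 8PM the TAN libraries held 9.97, 0.602, 87.7 and 31.4 CPM, against 16.1, 16.4, 13.2 and 23.05 CPM in ad-lib. TAN replicates 1 and 2 were below all 4 ad-lib libraries and replicates 3 and 4 above them. The 8PM log2 fold change of 0.92 (SE 0.60, adjusted p = 0.341) became 1.79 (edgeR adjusted p = 0.0169) without TAN replicates 1 and 2, and -0.30 (adjusted p = 0.787) without TAN replicate 3. TAN replicate 3 at 8PM also had the highest sum of 4 Schwann cell markers of all 48 libraries, 540 CPM against a median of 197 CPM; the part of Schwann cell RNA in the Gatm value was not tested.

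Ckb, the creatine kinase of the cycle, had the second separation among creatine genes at 4PM. Its TAN libraries held 57.4, 69.2, 61.6 and 56.1 CPM and its ad-lib libraries 43.3, 48.03, 34.3 and 34.8 CPM. The lowest TAN library exceeded the highest ad-lib library. The log2 fold change was 0.61 (SE 0.24, 95% interval 0.13 to 1.08, edgeR adjusted p = 0.0678), with DESeq2 at an adjusted p of 0.0495 and limma voom at 0.0569. At 12AM TAN held 63.5 ± 13.2 CPM and ad-lib 47.7 ± 3.82 CPM (SD, n = 4), with overlap (adjusted p = 0.363), and at 8AM, 12PM and 4AM the TAN mean was the lower one.

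Slc6a8 and Alpl, the transporter and the phosphatase, overlapped between the diets at all 6 time points. For Slc6a8 the 4PM TAN libraries held 14.5, 20.9, 21.2 and 21.0 CPM and the ad-lib libraries 14.8, 11.9, 10.3 and 12.1 CPM. Replicates 2 to 4 of TAN were above all ad-lib libraries and replicate 1 was not. Its log2 fold change was 0.66 (95% interval -0.21 to 1.53, adjusted p = 0.290), and over the 6 time points it ranged from -0.29 to 0.66. Alpl was measured on 5 to 135 counts per library, and its log2 fold changes ran from -0.71 at 12AM to 0.82 at 4AM, none with an unadjusted p under 0.05. These intervals do not show that the diets were alike: for Alpl at 4AM the interval ran from -0.23 to 1.88.

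The 2 calcium pumps behaved differently from each other. Atp2a3 was the 1 member called at 4PM, where 15.3% of all genes were called and 8.77% were called lower. Its TAN libraries held 22.2, 39.3, 50.3 and 23.4 CPM, and the ad-lib libraries 74.8, 97.9, 154 and 131 CPM. The log2 fold change was -1.76 (SE 0.55, 95% interval -2.87 to -0.64, edgeR adjusted p = 0.0305). The call was kept in 4 of 8 fits that left out 1 library and was lost without ad-lib replicate 3 or 4 or TAN replicate 1 or 4 (adjusted p 0.0641 to 0.0995). It was also lost with the replicate block (adjusted p = 0.0502). The summed lymphocyte markers moved with it, at 943 to 1665 CPM in ad-lib and 9.73 to 322 CPM in TAN, and with them as a covariate the log2 fold change was -0.30 (adjusted p = 0.765). At 12AM TAN replicate 1 held 98.3 CPM and replicates 2 to 4 held 22.03, 37.5 and 16.6 CPM, against 47.1 to 130 CPM in ad-lib (adjusted p = 0.303).

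Atp2a2, the pump used by most cell types, had the highest level per length of the 8 members, and its log2 fold changes over the 6 time points lay between -0.41 and 0.47. At 4PM its TAN libraries held 126, 177, 105 and 196 CPM and the ad-lib libraries 128, 127, 115 and 151 CPM. The TAN libraries reached both below and above the ad-lib range, and the log2 fold change was 0.21 (95% interval -0.26 to 0.68). At 8AM TAN held 161 ± 20.9 CPM and ad-lib 116 ± 36.7 CPM (SD, n = 4), a log2 fold change of 0.47 (SE 0.23, adjusted p = 0.757). At 8PM the order was the opposite, 89.5 ± 30.3 CPM in TAN and 119 ± 15.2 CPM in ad-lib, a log2 fold change of -0.41 (SE 0.23, adjusted p = 0.250). The 8PM value was called with the lymphocyte markers as a covariate (-0.54, edgeR adjusted p = 0.0480). It was -0.09 (adjusted p = 0.848) without TAN replicates 1 and 2 at 8PM, the libraries with the least adipocyte RNA, and 0.06 (adjusted p = 0.930) with the TEC share, described with Ryr2, as a covariate.

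Ryr2, the release channel, was called at 8PM, where 11.7% of all genes were called and 7.91% were called lower. The 4 TAN libraries had 0 counts each and the ad-lib libraries 46, 13, 28 and 22 counts. A count of 0 allows up to 3 counts per library, so that Ryr2 was at least 7.76-fold lower in TAN than the ad-lib mean of 1.13 ± 0.47 CPM (edgeR adjusted p = 0.0172); this floor covers counting error only. Ryr2 was the 1 member whose diets did not overlap at 8PM, as was so for 16.1% of all genes. TAN had 0, 7, 0 and 2 counts at 4PM and 0, 0, 4 and 0 at 12AM, and 6 to 36 counts in every library at 8AM, 12PM and 4AM. In ad-lib, 0 counts also occurred, in 2 libraries at 8AM and 2 at 12PM and in 1 each at 12AM and 4AM.

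**Figure D3:**
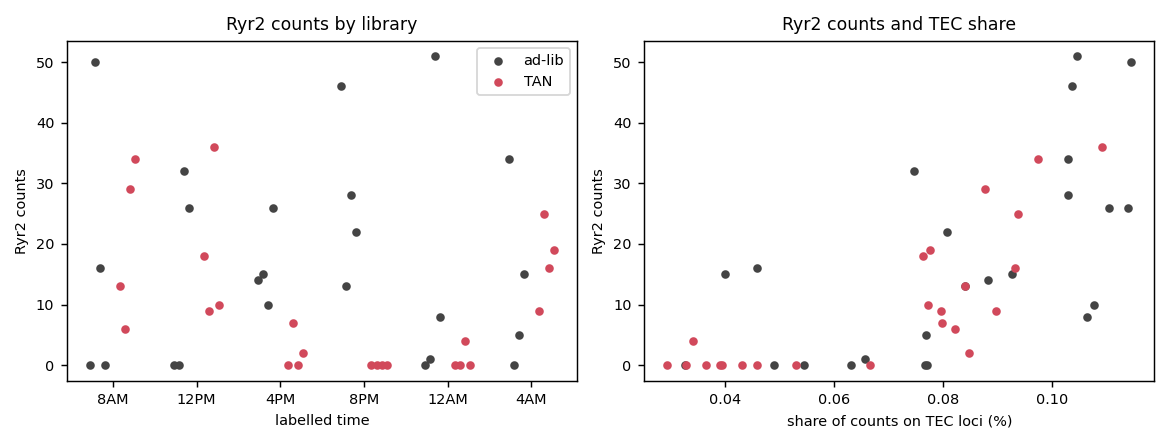
Ryr2 counts per library (vertical axis) by labelled time (left) and against the percentage of a library's counts on loci of the TEC biotype (right), with ad-lib in grey and TAN in red. The 4 TAN libraries at 8PM have 0 counts and a TEC share of 0.0294% to 0.0394%, and the ad-lib libraries at 8PM have 13 to 46 counts and a share of 0.0807% to 0.104%.

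At 8PM the diets also differed in a measure of the libraries themselves. TEC is GENCODE's biotype for loci that rest on unspliced transcript evidence only. At 8PM these loci took 0.0294% to 0.0394% of counts in TAN and 0.0807% to 0.104% in ad-lib, and the TAN shares at 4PM and 12AM, the other time points with few Ryr2 counts, were 0.0327% to 0.0847% and 0.0340% to 0.0665%. TEC share and Ryr2 counts did not go together in every library. Ad-lib replicate 4 at 4AM had 15 counts at a share of 0.0399%, and TAN replicate 4 at 4PM had 2 counts at 0.0847%. With the TEC share as a covariate the Ryr2 call at 8PM was lost (edgeR adjusted p = 0.245), which does not show where the difference of 0 counts in each TAN library against 13 to 46 in ad-lib comes from. The call was kept in all 8 fits that left out 1 library of 8PM (adjusted p 0.0232 to 0.0431), and was lost without TAN replicates 1 and 2 together (adjusted p = 0.0719). The part of unspliced RNA or of RNA quality in the Ryr2 counts was not tested beyond that covariate. The sum of 4 endothelial markers (Pecam1, Cdh5, Kdr and Tek) also separated the diets at 8PM. It was 134 to 252 CPM in TAN and 334 to 478 CPM in ad-lib, and its part in the 8PM values was not tested.

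Averaged over the 6 time points, 1 of 8 members differed between the diets, Ryr2, with a median of 0.350 CPM over the 24 TAN libraries and 0.656 CPM over the 24 ad-lib libraries (edgeR adjusted p = 0.0489); 5.42% of all genes were called in this contrast. This was no decrease at every time: the Ryr2 log2 fold changes at 8AM, 12PM and 4AM were positive (0.68, 0.23 and 0.42). They were negative at 4PM, 8PM and 12AM, where TAN libraries had 0 to 7 counts, so the average rests on groups near the count floor. The adjusted p of this mean Ryr2 effect was over 0.05 without the Acta1-rich libraries (0.0656) and with limma voom (0.414). The other 7 members had mean log2 differences between -0.19 for Atp2a3 and 0.33 for Alpl. The TAN effect differed between time points for 0 of 8 members by edgeR, against 8.98% of all genes, and 4 members (Gamt, Ckb, Atp2a3 and Ryr2) had an unadjusted p under 0.05, as had 30.2% of all genes. DESeq2 called 3 of them and limma voom 2.

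Over the day, 0 of 8 members varied in ad-lib mice by edgeR (0.0551% of all genes were called and 0 members had an unadjusted p under 0.05, and DESeq2 and limma voom also called 0). In TAN mice 2 of 8 did, Atp2a3 (adjusted p = 0.0457) and Ryr2 (adjusted p = 0.0218), against 23% of all genes. The Atp2a3 call was lost without the Acta1-rich libraries (adjusted p = 0.0690) and with the lymphocyte covariate (0.601), and Atp2a2 was called in both fits (0.0434 and 0.0116). The Atp2a3 group means in TAN ran from 33.8 ± 13.5 CPM at 4PM to 114 ± 29.2 CPM at 8AM (SD, n = 4), and those of Ryr2 from 0 CPM at 8PM to 1.16 ± 0.76 CPM at 8AM. Atp2a2 missed the threshold (adjusted p = 0.0526) with its lowest TAN mean at 8PM and its highest at 8AM. Variation in TAN and not in ad-lib is not itself a difference between the diets, which is what the test between time points asked.

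The 4PM values of Gamt, Ckb and Atp2a3 moved with lymphocyte and adipocyte marker RNA. The sum of the 10 lymphocyte markers at 4PM was 9.73 to 322 CPM in TAN and 943 to 1665 CPM in ad-lib, and the sum of the 7 adipocyte markers was 23763 to 45757 CPM in TAN and 10009 to 16160 CPM in ad-lib. Neither range overlapped, so that the diet and the amount of lymphocyte marker RNA cannot be told apart at 4PM. In bulk tissue fewer cells of a type cannot be told apart from less RNA per cell. With the lymphocyte markers as a covariate, the 4PM log2 fold change was 0.56 for Gamt (edgeR adjusted p = 0.615) and 0.12 for Ckb (0.832), beside the -0.30 given for Atp2a3, and 0 genes of 19977 were called at 4PM.

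**Figure D4:**
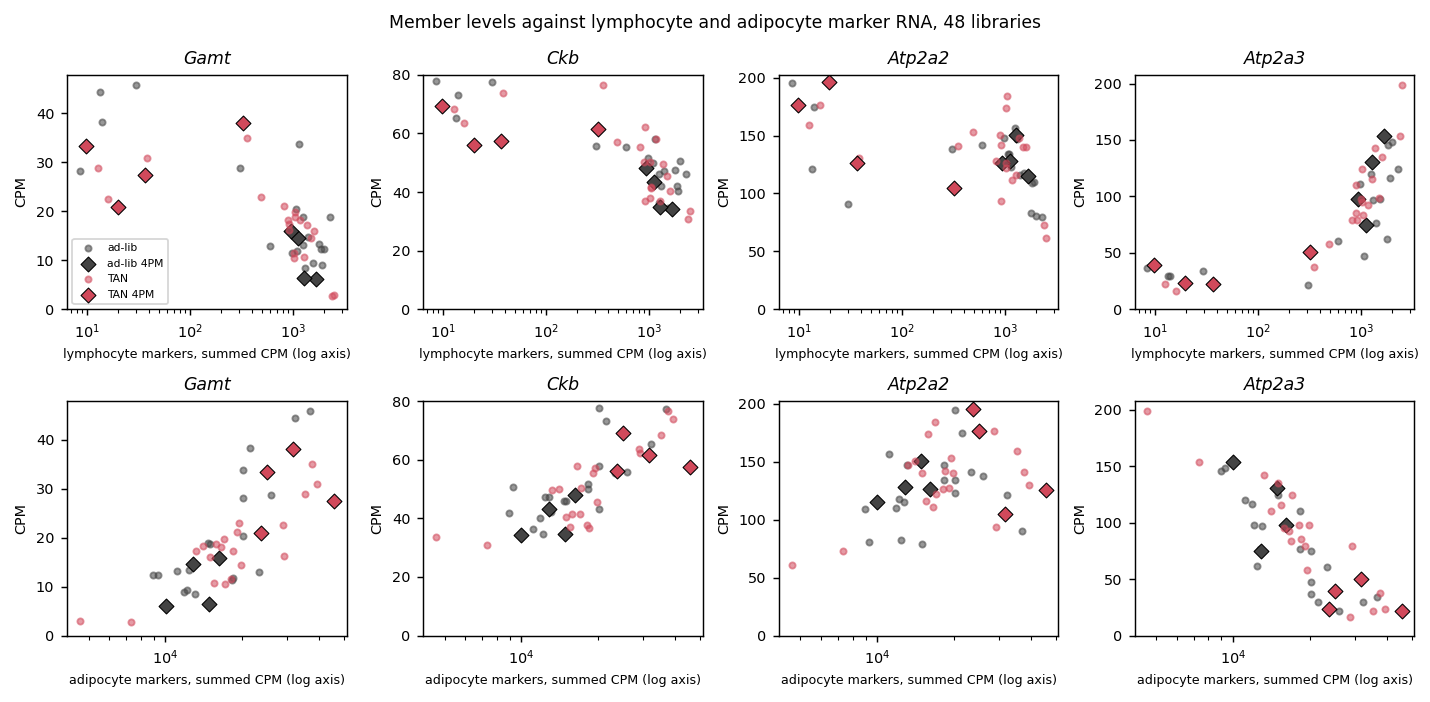
CPM of Gamt, Ckb, Atp2a2 and Atp2a3 (vertical axes) in the 48 libraries against the summed CPM of 10 lymphocyte markers (top row) and 7 adipocyte markers (bottom row), both on log axes; grey is ad-lib, red is TAN, and outlined diamonds are the 4PM libraries. The 4PM TAN diamonds lie at lymphocyte sums of 9.73 to 322 CPM and the ad-lib diamonds at 943 to 1665 CPM, and Atp2a3 is high where that sum is high.

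Skeletal muscle RNA was set apart through Acta1. No library of either diet at 4PM was Acta1-rich, and at 8PM 1 ad-lib library was (223 CPM). Each Acta1-rich library was compared with the other 3 libraries of its own group. Ckm, Atp2a1 and Casq1, the creatine kinase, calcium pump and calcium store protein of skeletal muscle, were above the other 3 in 6 of 6 comparisons, by at least 8.08-fold, 9.02-fold and 5.80-fold over their mean, and Ryr1 in 5 of 6. Among the members, Slc6a8 was above in 4 of 6, Gatm, Ckb, Atp2a3 and Ryr2 in 3, Gamt and Atp2a2 in 2 and Alpl in 1, and Slc6a8, Gatm, Ckb and Ryr2 were below the other 3 in 0 of 6. The median ratio to the other libraries was 1.52 for Slc6a8, 1.22 for Ryr2, 1.21 for Gatm, 1.14 for Gamt, 1.13 for Atp2a3 and 1.10 for Ckb. It was 0.954 for Alpl and 0.892 for Atp2a2, against 53.3 for Ckm, 23.7 for Atp2a1 and 3.67 for Ryr1. The part of muscle RNA in the members' values was not tested beyond the fits without these libraries and with muscle markers as a covariate.

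In the library with most Acta1 (ad-lib replicate 3 at 4AM, 2149 CPM), Gatm was at 49.9 CPM against 14.5 to 19.7 CPM in the rest of its group, Slc6a8 at 21.6 against 4.03 to 12.6 CPM and Atp2a2 at 175 against 79.2 to 123 CPM. That library and the next (ad-lib replicate 3 at 12PM, 885 CPM) also had low lymphocyte sums, 14.01 and 8.46 CPM, so that muscle and lymphocyte marker RNA differed together in them. Without the 6 Acta1-rich libraries the same 2 calls were made: Atp2a3 at 4PM had a log2 fold change of -1.76 (edgeR adjusted p = 0.0274), and Ryr2 at 8PM an adjusted p of 0.0393. That fit left out no 4PM library, so the Atp2a3 value had little room to change, and only ad-lib replicate 1 at 8PM. Without the libraries over 5 times the median Acta1, Atp2a3 at 4PM was still called (edgeR adjusted p = 0.0423) and Ryr2 at 8PM was not. With the fast skeletal muscle markers as a covariate Atp2a3 stayed at -1.77 (adjusted p = 0.0291), Gamt reached an adjusted p of 0.0463 and Ckb 0.0486 at 4PM.

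**Figure D5:**
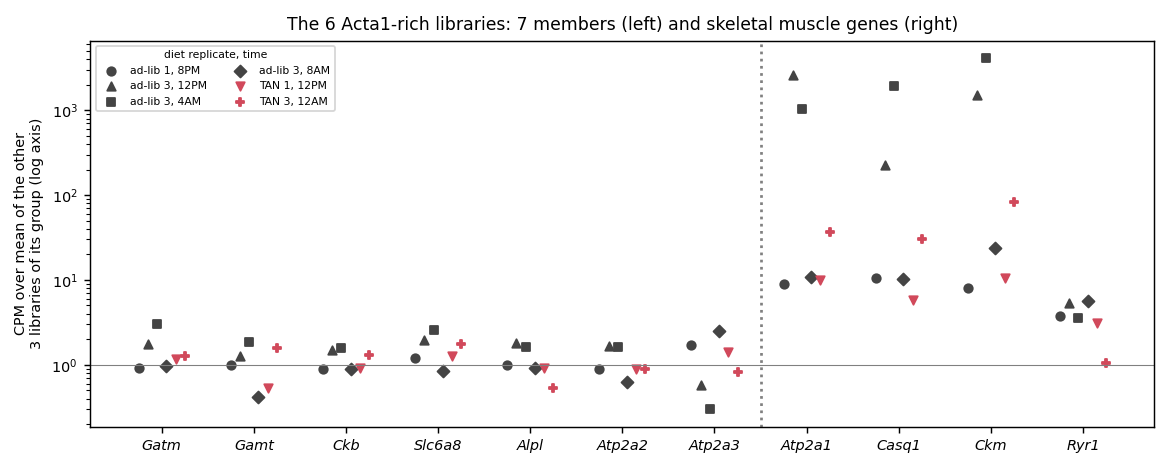
CPM in each of the 6 Acta1-rich libraries divided by the mean of the other 3 libraries of its group (log axis; 1 means equal), for 7 members left of the dotted line and 4 skeletal muscle genes right of it; where those 3 libraries averaged under 3 counts, 3 counts were used. The 7 members lie between 0.299 and 2.998, Ryr1 between 1.05 and 5.65, and Atp2a1, Casq1 and Ckm at 5.80 or above; Ryr2, at 0.332 to 4.48 on few counts, is not plotted.

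Across the 48 libraries the creatine genes formed a loose group. Gamt and Ckb had a Pearson correlation of log2 CPM of 0.82 (0.82 also without the Acta1-rich libraries), Ckb and Slc6a8 0.69 and Gatm and Gamt 0.63. Atp2a3 ran against them, at -0.75 with Ckb and -0.73 with Gamt, and Alpl was nearly unrelated to Gamt (0.12) and Ckb (0.13). These values describe libraries that share depth and tissue makeup and carry no test. The most similar of the 19977 genes were Il4ra, Prex1 and Fgd3 for Atp2a3 (0.98, 0.97 and 0.97), Epb41l2, Kpna6 and D5Ertd579e for Atp2a2 (0.94, 0.93 and 0.93), and Cryab, Cd59a and Cd151 for Gamt (0.93, 0.92 and 0.92). For Gatm they were S100b, Gjc3 and Snrpn (0.91, 0.88 and 0.87), and for Ckb Eri3, Slc48a1 and B4gat1 (0.88, 0.87 and 0.87). Slc6a8 (Gja5, Tnfrsf1a and Gna11, 0.78 each), Alpl (Heg1, Rhobtb1 and Neo1, 0.69, 0.67 and 0.67) and Ryr2 (Gm44423, Snrnp70 and Gm44175, 0.84, 0.82 and 0.82) had weaker matches.

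Other genes linked to the same cycles were read from lists of gene names, also set with earlier results of these data known. Of 6 tested genes among 7 in a further creatine list, 2 were called higher at 4PM and 1 at 8PM, and 0 lower. Over all genes 6.54% were called higher and 8.77% lower at 4PM, and 3.76% and 7.91% at 8PM. All these calls were of ADP/ATP carriers: Slc25a4 (log2 fold change 0.99, edgeR adjusted p = 0.0213) and Slc25a5 (0.83, 0.0156) at 4PM, and Slc25a5 (0.66, 0.0462) at 8PM. The other tested genes of that list, Ckm, Ckmt2, Slc16a12 and Phospho1, were not called at any time point. Of 25 tested genes among 26 further calcium store genes, 1 was called higher (Fkbp1a, a ryanodine receptor binding protein, log2 fold change 0.99, adjusted p = 0.0192) and 1 lower at 4PM, and 3 lower at 8PM, among them the adrenergic receptor Adra1a (-2.06, 0.0209) and the IP3 receptor Itpr1 (-1.10, 0.0444). Slc25a4, Slc25a5, Fkbp1a, Adra1a and Itpr1 were named after their values were seen. All 7 mitochondrial calcium genes were tested, of which 1 was called higher at each of these times. The median log2 fold change at 4PM was 0.45 in the creatine list, -0.02 in the calcium store list and 0.25 in the mitochondrial list, and -0.09 over all genes. With the lymphocyte markers as a covariate 0 genes of these lists were called at 4PM, and all 5 calls at 8PM were kept. With the TEC share as a covariate 0 of the 5 were kept, and without TAN replicates 1 and 2 at 8PM Smdt1, Adra1a and Ryr3 were (adjusted p 0.0291, 0.0181 and 0.0456). Among the called genes of these lists, the largest increase at both times was that of Smdt1, a regulator of the mitochondrial calcium uniporter, with 146 ± 42.3 CPM in TAN and 66.8 ± 13.2 CPM in ad-lib at 4PM (log2 fold change 1.13, SE 0.25, edgeR adjusted p = 0.00830) and 0.85 at 8PM (adjusted p = 0.0251). Thada, which is reported to interact with SERCA pumps, was the 1 gene called lower at 4PM, 11.8 ± 3.75 against 24.3 ± 3.27 CPM (log2 fold change -1.04, SE 0.34, adjusted p = 0.0371). At 8PM the called gene with the largest decrease was Ryr3, a second ryanodine receptor, with 0 counts in all 4 TAN libraries and 13 to 112 in ad-lib (adjusted p = 0.00943), the pattern seen for Ryr2. At the other 4 time points, 8AM, 12PM, 12AM and 4AM, edgeR called 0 genes of the 3 lists, with 2, 2, 4 and 0 genes higher and 3, 0, 2 and 2 lower at an unadjusted p under 0.05. Of all genes, 6.58%, 7.37%, 17.5% and 2.64% had an unadjusted p under 0.05 in either direction at these times.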

How the data were processed

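The members, gene lists and tests were chosen with earlier results of these data known. The authors deposited raw counts per gene of 48 poly-A libraries, without normalization, and FPKM averaged over each group, not used here. The submitters' processing notes name TopHat 1.3.3 and the builds mm9, mm10 and GRCm38; the coordinates of 98.1% of all 54532 genes are those of GENCODE M21 (GRCm38). Strandedness is not given in the sources used here. Groups came from the sample labels, and 0 sample columns were left unused.

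CPM used TMM factors; for correlations a prior count of 2 was added before taking logs. One robust quasi-likelihood model of edgeR 4.0.16 (R 4.3.3) was fitted to 12 groups after filterByExpr with a minimum count of 10, with Benjamini-Hochberg adjustment over all 19977 genes within each test. DESeq2 1.42.0, limma 3.58.1 (voom), other filters and scalings, marker covariates and omitted libraries were alternatives. The model was tested on simulated counts. Members named were all 8; of other lists, the called gene with the largest change per direction and time point; and the 3 genes most correlated with each member. Replicate numbers were not taken to pair libraries: 10 of 24 same-numbered pairs had a correlation of residuals over 0.1 (5000 genes, median -0.01). At 4PM the correlations were 0.47, 0.02, 0.20 and 0.34, and at 8PM they ran from -0.51 to 0.84. These values do not settle whether libraries were paired at single time points, and a replicate block was an alternative fit. One split of the libraries is not reported here.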

Additional observations from a re-analysis of the deposited data

Results flagged for a closer look

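Each member's 4 libraries were examined in 95 groups of diet and time for 1 library far from the other 3, and 8 were found where 4.75 would be by chance at 1 in 20. In ad-lib these were Gatm of replicate 3 at 4AM, at 49.9 CPM, and Slc6a8 of replicate 4 at 8AM, at 25.2 CPM, both above the rest. In TAN Ckb of replicate 4 was above the rest at 8AM (49.5 CPM) and at 4AM (55.4 CPM), and so was Slc6a8 of the same replicate at 4AM (15.1 CPM). Slc6a8 of TAN replicate 1 at 4PM, at 14.5 CPM, was below the other 3. Alpl of TAN replicate 4 at 12PM was at 4.03 CPM with the other 3 equal at 3.09 CPM, and Ryr2 of TAN replicate 3 at 12AM was at 0.235 CPM, from 4 counts, with the other 3 at 0. The Gatm library is the one with the most Acta1, and the Slc6a8 library at 8AM had a lymphocyte marker sum of 29.6 CPM, against a median of 1039 CPM over the 48 libraries; their part in these values was not tested.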

How the results depend on the processing

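The limits are 4 libraries per group, lymphocyte and adipocyte marker RNA that separate the diets at 4PM, and low counts of Ryr2 and Alpl. At 8PM endothelial marker RNA and the TEC share separate the diets. Of 162 recomputed counts 101 stayed within 1.5 times the reported one; the causes of the others were not tested. Member and time combinations called higher (reported: 0) were 2 with DESeq2, the muscle covariate and separate fits per time point, 1 with limma voom, RLE factors and at least 10 counts in every library, and 3 without TAN replicates 1 and 2 at 8PM (added after seeing the data, as were the TEC share, the joint covariates and Acta1 over 5 or 20 times the median). Those called lower (reported: 2) were 1 with no filter, with at least 10 counts in every library, with separate fits, with both covariates, without TAN replicates 1 and 2 at 8PM and without Acta1 over 5 times the median, and 0 with the TEC share. The mean TAN effect (reported: 1 member) was called for 0 with limma voom, no filter, at least 10 counts in every library (where Ryr2 was not tested), each marker or TEC covariate, and without the libraries with Acta1 over 5, 10 or 20 times the median or TAN replicates 1 and 2 at 8PM. The effect between time points (reported: 0) was called for 3 members with DESeq2 and without TAN replicates 1 and 2 at 8PM, and for 2 with limma voom. Variation in TAN (reported: 2) was 1 with no filter, and 0 with the TEC share, without TAN replicates 1 and 2 at 8PM and without Acta1 over 5 times the median. Of the gene and time combinations of the other creatine and calcium lists, 6 were called higher and 4 lower, with Slc25a5 and Smdt1 counted at both 4PM and 8PM. Over all genes 4.54% of such combinations were called in either direction. The higher count became 1 at a log2 fold change above 1 and 0 with the TEC share. The lower count became 7 with DESeq2, 2 with no filter or at least 10 counts in every library, and 0 with the TEC share or without Acta1 over 5 times the median.

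Without replicate 1, 2, 3 or 4 of both diets, calls lower were 0 in every fit, the mean effect 0 and variation in TAN 0 to 1. Combinations of the other creatine and calcium lists were 0 to 5 higher and 0 to 4 lower. The replicate block within time point gave 1 call lower (Ryr2 at 8PM, edgeR adjusted p = 0.0362), 0 for the mean effect and 0 for variation in TAN, and moved no other of these counts by over 1.5 times; Atp2a3 at 4PM had an adjusted p of 0.0502 with it. With the lymphocyte covariate the 2 calls lower were Ryr2 and Atp2a2 at 8PM, and the 2 members that varied in TAN were Ryr2 and Atp2a2, as they were without the Acta1-rich libraries. Over all genes, 1306 were called higher and 1751 lower at 4PM, against 0 and 0 with that covariate, 22 and 33 with the TEC share, 596 and 1062 with no filter, and 53 and 300 without replicate 3. Acta1-rich libraries were 10 at 5 times and 3 at 20 times the median. Of the 48 member and time combinations, the sign of the log2 fold change turned in 17 with the lymphocyte covariate, 13 with the TEC share and 6 without the Acta1-rich libraries.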

Other observations

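Of 11 genes of a brown and beige adipocyte list, 3 were called higher in TAN at 4PM by edgeR, where 6.54% of all genes were called higher, and 1 lower at 8PM, where 7.91% were. The 3 were Cidea, a lipid droplet protein, at 87.7 ± 35.8 CPM against 26.5 ± 7.34 CPM in ad-lib (log2 fold change 1.72, SE 0.42, adjusted p = 0.0119), Cox7a1, a subunit of cytochrome c oxidase, at 9.31 ± 2.92 against 1.72 ± 0.88 CPM (2.43, adjusted p = 0.0236), and Elovl3, a fatty acid elongase, with 5 to 47 counts against 0 to 1 (adjusted p = 0.0237). Of the rest, Dio2, Prdm16 and Ppargc1a had log2 fold changes of -0.58, -0.38 and 0.03 at 4PM. The list's median there was 1.42, against -0.09 over all genes. Averaged over the 6 time points, Cidea, Elovl3 and Kcnk3 were called higher (edgeR adjusted p = 1.4e-05, 0.00254 and 0.00286). Cox7a1 was not (0.158), and 5.42% of all genes were called in that contrast. The 1 lower at 8PM was Ppargc1a, a coactivator of mitochondrial genes, at 4.41 ± 3.42 against 13.0 ± 8.35 CPM (log2 fold change -1.56, adjusted p = 0.0341). For Ppargc1a the diets overlapped, at 1.42 to 9.01 CPM in TAN and 6.25 to 25.0 CPM in ad-lib. The 8PM TAN group includes replicates 1 and 2, with the lowest adipocyte sums, and the TEC share and endothelial markers separate the diets at 8PM. The part of any of these in the Ppargc1a value was not tested. These genes were named after their values were seen, and the 4PM contrast carries the same separation in lymphocyte and adipocyte marker RNA as the members.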
